A study of Mus musculus with 7 samples.

Results

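The 10 genes described here are markers of macrophages and lymphocytes, followed in quadriceps femoris muscle of mice with a mutant Twinkle transgene and of wild-type mice. They are Ptprc, Cd68, Adgre1, Itgam, Csf1r, Cd163, Mrc1, Lyz2, C1qa and Cd3e. All 10 were measured, by 13 probe sets annotated to 1 of these symbols, out of 34945 probe sets for 18193 genes tested. Csf1r had 3 probe sets, Ptprc had 2 and each of the other genes had 1. The mutant mice overexpressed mutant Twinkle, the helicase of mitochondrial DNA replication, and model progressive external ophthalmoplegia. They were 24, 24 and 21 months old (mutant replicates 1, 2 and 3), and the wild-type mice were 26, 24, 21 and 23 months old (wild-type replicates 1, 2, 3 and 4). The labels call the 7 arrays biological replicates, with 3 mutant and 4 wild-type arrays. The strain, the sex and the promoter that drives the transgene are not given in the sources used here. Every value below is a deposited log2 value centred on the median of its probe set, so that 0 is the middle of the 7 arrays. Such values compare arrays for 1 probe set and give no level.

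Resident macrophages lie between the fibres and in the connective tissue of skeletal muscle, where they clear debris and support repair, and monocytes from blood join them after injury. They depend on signalling through the CSF1 receptor and carry receptors for sugars, haemoglobin and complement-coated particles. T cells are sparse in healthy muscle and enter inflamed muscle. Because whole muscle was measured, more leukocytes and more RNA of a marker per leukocyte cannot be told apart.

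The arrays differed in ways that genotype did not follow. Over all tested probe sets, mutant replicate 2 and wild-type replicates 1 and 4 correlated with each other (Pearson r from 0.386 to 0.509) and negatively with the other 4 arrays (r from -0.487 to -0.171). Wild-type replicate 3 had the lowest mean of the 10 muscle fibre markers, at -0.48 against at least -0.10 in the other arrays, and the largest deficit of the 5′ against the 3′ Gapdh control probe set, at -0.55 against at least -0.040. The β-actin control did not share this, with 0.12 in wild-type replicate 3 and -0.14 to 0.12 over the arrays. Mutant replicate 1 stood out in the 18S ribosomal RNA controls, at 3.19 against at most 0.56 in the other arrays. A rough level was read from the spacing of the deposited numbers. By that reading 16 of 17 muscle fibre probe sets lay between 8 and 16 on the log2 scale, whereas 17 of 23 cerebellum probe sets lay between 2 and 4 and 1 between 8 and 16. The labels' tissue entry is muscle and their free-text description names cerebellum. Among the leukocyte markers, 3 probe sets lay between 8 and 16 (Lyz2, C1qa and 1419872_at of Csf1r), 8 between 4 and 8, and 2 between 2 and 4 (Itgam and 1440165_at of Ptprc).

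The promoters of 3 markers that varied together across the arrays are shown, because myeloid genes are known targets of PU.1 (gene Spi1), an ETS factor that binds purine-rich sequences around GAGGAA. Each window runs from 250 bases before to 50 bases after the gene's start, 5′ to 3′ on the gene's strand, and comes from RefSeq on GRCm38.p6. Capitals mark GAGGAA or its reverse complement TTCCTC. The Cd68 window is chr11:69666121-69666420 (minus strand), the Mrc1 window chr2:14229164-14229463 (plus strand) and the Lyz2 window chr10:117282223-117282522 (minus strand).
Cd68: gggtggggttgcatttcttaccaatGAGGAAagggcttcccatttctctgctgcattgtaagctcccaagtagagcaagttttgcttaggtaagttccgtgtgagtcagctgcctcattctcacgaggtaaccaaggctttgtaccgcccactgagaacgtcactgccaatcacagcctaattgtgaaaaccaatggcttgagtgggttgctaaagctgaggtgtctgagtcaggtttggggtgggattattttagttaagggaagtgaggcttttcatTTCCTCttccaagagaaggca
Mrc1: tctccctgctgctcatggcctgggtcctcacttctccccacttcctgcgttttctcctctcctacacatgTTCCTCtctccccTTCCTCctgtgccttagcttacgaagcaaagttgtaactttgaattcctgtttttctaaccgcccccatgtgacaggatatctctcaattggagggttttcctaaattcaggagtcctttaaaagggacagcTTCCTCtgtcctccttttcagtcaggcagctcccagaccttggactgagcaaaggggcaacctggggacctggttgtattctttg
Lyz2: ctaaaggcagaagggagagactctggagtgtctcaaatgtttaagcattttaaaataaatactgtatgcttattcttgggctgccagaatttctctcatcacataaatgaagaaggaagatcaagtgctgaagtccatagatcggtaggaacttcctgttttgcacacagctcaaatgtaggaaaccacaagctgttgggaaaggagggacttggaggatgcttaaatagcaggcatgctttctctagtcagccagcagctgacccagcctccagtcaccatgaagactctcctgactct
The Cd68 window held 2 matches, whose first bases lay at -225 and 29 from the start, and the Mrc1 window held 3, at -180, -167 and -35. The Lyz2 window held none of these letters. The table held 8 windows for 7 of the 10 genes, and 5 of the 8 contained GAGGAA on either strand (1 window each for Ptprc, Mrc1, Itgam, Cd3e and Cd68). Over all 32851 windows the share was 28.3%. The longer motif GAGGAAGT, which overlaps GAGGAA, was in 0 of the 8 windows and in 3.20% of all windows, and TATAAA was in 1 of the 8 (Ptprc) and in 13.6% of all. These matches describe the letters of the windows only. Spi1 itself differed by -0.02 ± 0.10 (SE) on the log2 scale between mutant and wild-type muscle, with -0.15 to 0.07 in the 3 mutant arrays and -0.09 to 0.13 in the 4 wild-type arrays.

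No leukocyte marker passed the test between mutant and wild-type muscle, and for each of the 13 probe sets the arrays of at least 1 genotype spanned more than the difference between genotypes. With limma, 0 of the 13 probe sets passed an adjusted p of 0.05 in either direction (0.0% of all 34945 probe sets higher and 0.0% lower in mutant muscle), and each had an adjusted p of 1.00. At an unadjusted p under 0.05 there were also 0 of 13, against 1.79% of all probe sets. The differences between mutant and wild type were positive for 9 probe sets and negative for 4, from -0.36 for Cd3e to 0.45 for Cd68. Their median was 0.12, against -0.0055 over all probe sets tested, of which 48.3% were positive. Leaving out wild-type replicate 3 gave a median of 0.30 with 12 of 13 positive, against -0.0021 and 49.3% over all probe sets. Leaving out mutant replicate 1 or wild-type replicate 1 gave -0.02 and -0.06. Within mutant replicate 2 and wild-type replicates 1 and 4 the median was 0.35, and within the other 4 arrays it was -0.21. The 3 mutant arrays lay above the 4 wild-type arrays in 1 of the 13 probe sets, that of Itgam, where 1.1% of all probe sets did so, and below them in 0 of the 13, where 0.941% of all did so.

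**Figure D1:**
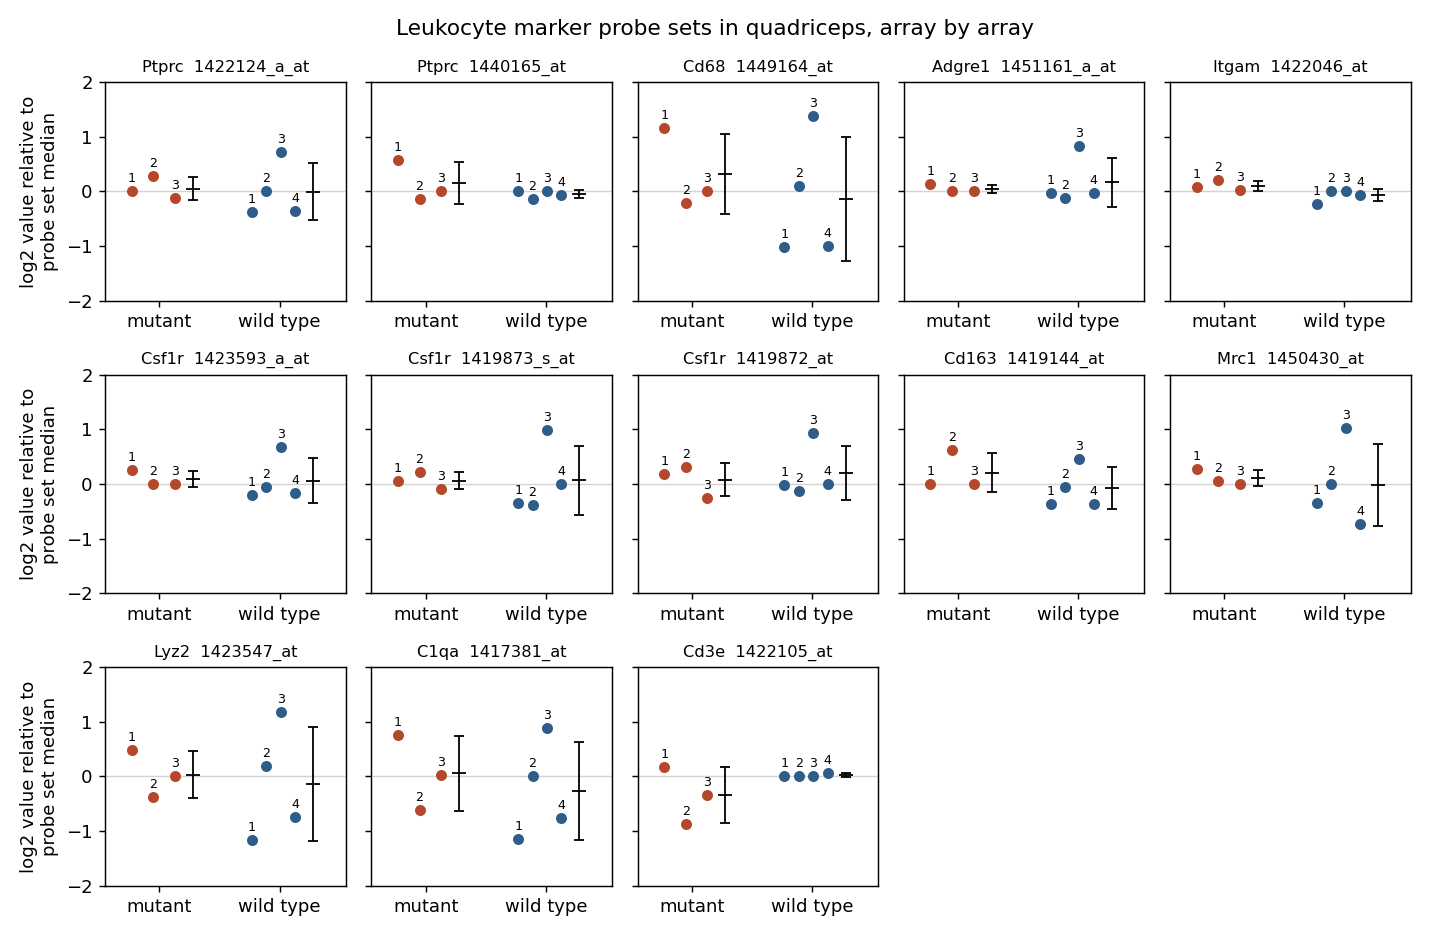
Log2 value relative to the probe set's median (y axis) for the 13 marker probe sets, with 3 mutant arrays in red and 4 wild-type arrays in blue, numbered by replicate, and the mean with SD beside each group. Wild-type replicate 3 is the highest array in 9 of the 13 panels, and the wild-type arrays span more than the mutant arrays for Cd68, Lyz2 and C1qa.

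Cd68, Lyz2 and C1qa had the widest spread between arrays, and mutant and wild-type values overlapped in all of them. Cd68, a glycoprotein of macrophage lysosomes, measured 1.16, -0.20 and 0.00 in mutant replicates 1 to 3 and -1.02, 0.10, 1.38 and -0.99 in wild-type replicates 1 to 4. Wild-type replicate 3 and mutant replicate 1 were the high arrays, and wild-type replicates 1 and 4 the low ones. Mutant muscle averaged 0.32 ± 0.74 (SD, n = 3), against -0.13 ± 1.13 (SD, n = 4) for wild type. The difference of 0.45 ± 0.63 (SE), or 1.37-fold, had a 95% interval from -1.03 to 1.93 (limma adjusted p = 1.00). It was 0.03 without mutant replicate 1 and 0.96 without wild-type replicate 3, the range over leaving out each array.

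Lyz2, the lysozyme of macrophages and neutrophils, measured 0.48, -0.38 and 0.00 in mutant muscle and -1.17, 0.20, 1.18 and -0.75 in wild-type muscle. Its highest and its lowest array were both wild type, 2.34 apart, so the mutant range lay inside the wild-type range. Mutant muscle averaged 0.03 ± 0.43 (SD, n = 3) and wild type -0.14 ± 1.04 (SD, n = 4). The difference was 0.17 ± 0.54 (SE), with an interval from -1.10 to 1.44, and it lay between -0.17 (wild-type replicate 1 left out) and 0.61 (wild-type replicate 3 left out). Lyz1 is a near-identical copy, and cross-hybridisation between the copies was not tested. The 3 Lyz1 probe sets differed by 0.09, 0.04 and 0.14 between mutant and wild type.

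C1qa encodes a chain of C1q, the recognition protein that starts the classical complement pathway and is made by tissue macrophages. It measured 0.76, -0.62 and 0.03 in mutant muscle and -1.15, 0.00, 0.88 and -0.76 in wild-type muscle. As for Cd68 and Lyz2, the 3 lowest arrays were mutant replicate 2 and wild-type replicates 1 and 4, the arrays that stood apart over all probe sets. The mutant mean was 0.06 ± 0.69 (SD, n = 3) and the wild-type mean -0.26 ± 0.90 (SD, n = 4), and the difference of 0.32 ± 0.52 (SE) had an interval from -0.91 to 1.54. It was -0.03 without mutant replicate 1 and 0.70 without wild-type replicate 3. The partner chain C1qc measured 0.33, -0.89 and 0.00 in mutant muscle and -1.09, 0.00, 1.50 and -1.06 in wild-type muscle, so it had the same high and low wild-type arrays. C1qb, the third chain, followed this pattern in 1417063_at, with 0.92 in wild-type replicate 3 and -0.96 in wild-type replicate 1. Its probe sets 1434366_x_at and 1437726_x_at measured 0.07 and 0.08 in wild-type replicate 1 and did not.

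Csf1r, Adgre1 and Ptprc mark macrophages, mouse macrophages and all nucleated blood cells, and each had at least 1 probe set that was high in wild-type replicate 3. Csf1r, the receptor for the growth factors CSF1 and IL34, was measured by 3 probe sets that correlated over the 7 arrays (r from 0.844 to 0.927). Probe set 1419872_at measured 0.18, 0.32 and -0.26 in mutant muscle and -0.02, -0.12, 0.93 and 0.00 in wild-type muscle. Wild-type replicate 3 stood alone at the top, and the other 3 wild-type arrays lay inside the mutant range. The difference was -0.12 ± 0.28 (SE) for this probe set, -0.0027 ± 0.33 for 1419873_s_at and 0.03 ± 0.22 for 1423593_a_at. All 3 intervals included 0, and the widest ran from -0.77 to 0.76. With each array left out in turn these differences ranged from -0.24 to 0.12, from -0.15 to 0.31 and from -0.06 to 0.23, highest in each case without wild-type replicate 3.

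Adgre1, an adhesion receptor that serves as a macrophage marker in mice, measured 0.13, 0.00 and 0.00 in mutant muscle and -0.04, -0.11, 0.83 and -0.02 in wild-type muscle. The 6 arrays other than wild-type replicate 3 lay between -0.11 and 0.13. Mutant muscle averaged 0.04 ± 0.08 (SD, n = 3), against 0.17 ± 0.45 (SD, n = 4) for wild type, and the difference was -0.12 ± 0.23 (SE). Leaving out wild-type replicate 3 gave 0.10, and leaving out wild-type replicate 2 gave -0.21.

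Ptprc encodes CD45, the phosphatase carried by white blood cells of every lineage. Its probe set 1422124_a_at measured 0.00, 0.28 and -0.12 in mutant muscle and -0.38, 0.00, 0.73 and -0.36 in wild-type muscle, and all 3 mutant values lay inside the wild-type range. The difference was 0.06 ± 0.28 (SE), with an interval from -0.59 to 0.70, and it lay between -0.07 (wild-type replicate 1 left out) and 0.30 (wild-type replicate 3 left out). The dimmer probe set 1440165_at measured 0.58, -0.14 and 0.00 in mutant muscle and 0.00, -0.14, 0.01 and -0.06 in wild-type muscle. Its high array was mutant replicate 1 rather than wild-type replicate 3, and the probe sets of Ptprc did not track each other (r = -0.034 over 7 arrays). Its difference was 0.20 ± 0.17 (SE), and -0.02 without mutant replicate 1.

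Mrc1 and Cd163 mark resident macrophages of the scavenging kind. Mrc1, the mannose receptor CD206, measured 0.28, 0.05 and 0.00 in mutant muscle and -0.35, 0.00, 1.02 and -0.73 in wild-type muscle. The mutant arrays lay within 0.28 of each other, inside a wild-type range of 1.75. Mutant muscle averaged 0.11 ± 0.15 (SD, n = 3), against -0.01 ± 0.75 (SD, n = 4) for wild type, and the difference was 0.12 ± 0.38 (SE). Leaving out wild-type replicate 4 gave -0.11, and leaving out wild-type replicate 3 gave 0.47. Cd163, the receptor that takes up haemoglobin bound to haptoglobin, measured 0.00, 0.62 and 0.00 in mutant muscle and -0.37, -0.05, 0.46 and -0.36 in wild-type muscle. Mutant replicate 2 was its highest array, and wild-type replicate 3 the next. The difference was 0.28 ± 0.25 (SE) or 1.22-fold, with an interval from -0.30 to 0.86 (limma adjusted p = 1.00). It was 0.08 without mutant replicate 2 and 0.46 without wild-type replicate 3.

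Itgam, the CD11b integrin chain of monocytes, macrophages and neutrophils, had the smallest unadjusted p of the 13 probe sets by limma, with an adjusted p of 1.00. It measured 0.08, 0.21 and 0.03 in mutant muscle and -0.23, 0.00, 0.00 and -0.06 in wild-type muscle. All mutant values lay above all wild-type values, the nearest of them by 0.03 to wild-type arrays at exactly 0. The mutant mean was 0.11 ± 0.09 (SD, n = 3) and the wild-type mean -0.07 ± 0.11 (SD, n = 4), and the difference was 0.18 ± 0.10 (SE) or 1.13-fold, with an interval from -0.05 to 0.41. It lay between 0.13 and 0.22 with each array left out in turn.

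Cd3e, a signalling chain of the T cell receptor complex, was the only lymphocyte marker among the 10 and had the most negative difference. It measured 0.17, -0.86 and -0.34 in mutant muscle and 0.00, 0.00, 0.01 and 0.07 in wild-type muscle. The 4 wild-type arrays lay close together, and the mutant arrays lay on both sides of them. The mutant mean was -0.34 ± 0.52 (SD, n = 3) and the wild-type mean 0.02 ± 0.03 (SD, n = 4). The difference of -0.36 ± 0.22 (SE), 1.29-fold lower in mutant muscle, had an interval from -0.88 to 0.15 (limma adjusted p = 1.00). It was -0.62 without mutant replicate 1 and -0.11 without mutant replicate 2. The partner chains Cd3d and Cd3g lay in the lowest level class and differed by -0.02 ± 0.09 and -0.24 ± 0.21 (SE).

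**Figure D2:**
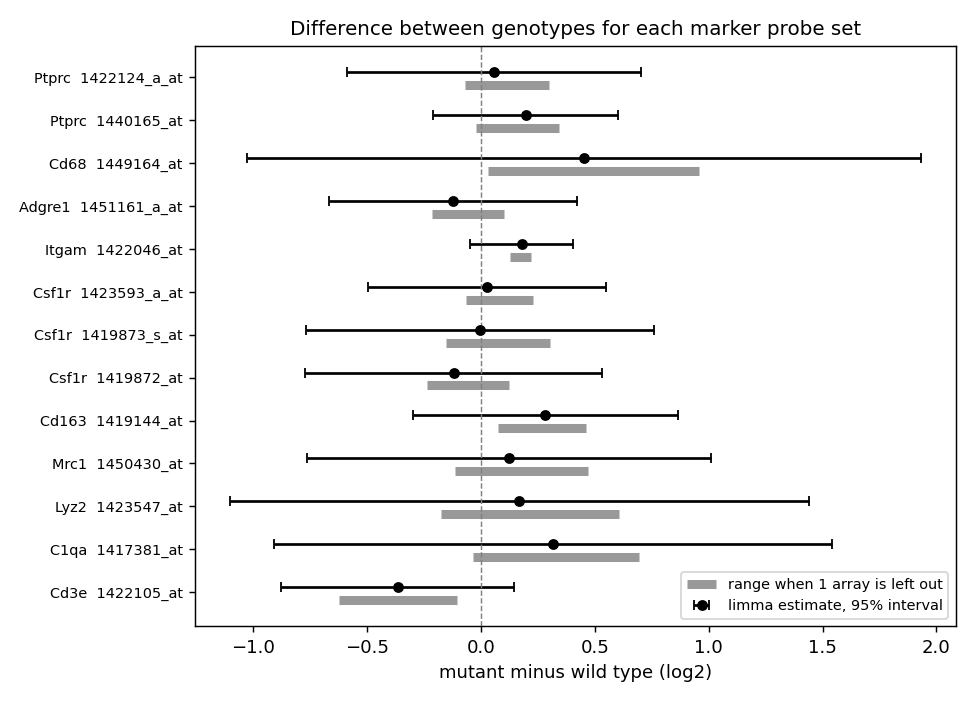
Mutant minus wild-type difference on the log2 scale (x axis) for the 13 marker probe sets, with limma's estimate and 95% interval in black and the range of the estimate when 1 of the 7 arrays is left out as a grey bar. Every interval includes 0, and the estimates run from -0.36 for Cd3e to 0.45 for Cd68.

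The macrophage markers varied together over the arrays, and Cd3e did not vary with them. With probe sets of a gene averaged, 42 of the 45 pairs of genes had a positive Pearson r over the 7 arrays, and the median r was 0.691. The closest pairs were Cd68 with C1qa (r = 0.972) and Lyz2 with C1qa (r = 0.968), while Csf1r with Adgre1 reached 0.957. Each gene was also set against the mean of the other 9, which gave r from 0.926 to 0.967 for Cd68, Lyz2, Ptprc, Mrc1 and C1qa, 0.790 for Adgre1, 0.805 for Csf1r, 0.567 for Cd163, 0.396 for Itgam and 0.076 for Cd3e. The points of these correlations are the same 7 arrays, which share any difference in array quality or tissue makeup. Cd3e correlated negatively with Cd163 (r = -0.635) and Itgam (r = -0.609).

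**Figure D3:**
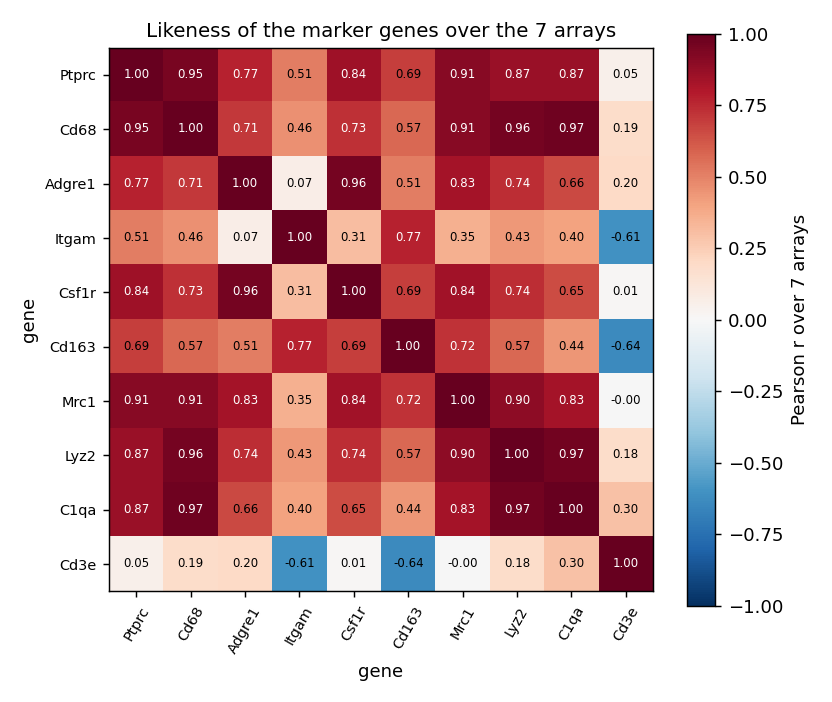
Pearson r over the 7 arrays between the 10 marker genes (both axes), with probe sets of a gene averaged and the colour scale from -1 to 1. Macrophage genes form a block of positive values, up to 0.97 for Cd68 with C1qa, and the Cd3e row and column run from -0.635 with Cd163 to 0.296 with C1qa.

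The mean over the 10 genes was 0.35, -0.09 and -0.05 in mutant replicates 1 to 3 and -0.47, -0.01, 0.70 and -0.39 in wild-type replicates 1 to 4. Both extremes were thus wild-type arrays, and the mutant mean of 0.07 ± 0.24 (SD, n = 3) and wild-type mean of -0.04 ± 0.53 (SD, n = 4) were 0.11 apart. Wild-type replicate 3 was highest in 9 of the 13 probe sets, and in 21.7% of all probe sets tested. Wild-type replicate 1 was lowest in 7 of the 13, and in 13.6% of all. The median range over the 7 arrays was 1.11 for the 13 probe sets and 0.56 over all probe sets, and 12.6% of all probe sets had a range of at least 1.11.

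Other macrophage genes had the same array profile and likewise no difference between genotypes that passed. Of 36 listed, 34 were measured by 63 probe sets, with 29 positive and 34 negative differences between mutant and wild type, a median of -0.0072 and 0 called by limma. At an unadjusted p under 0.05 there was 1 of the 63, against 1.79% of all probe sets. The list mean was 0.16, -0.08 and -0.02 in mutant and -0.25, 0.01, 0.54 and -0.25 in wild-type muscle, and it correlated with the mean of the 10 markers at r = 0.985 over the 7 arrays. Wild-type replicate 3 was the highest array for 22 of the 34 genes. Tyrobp, the adaptor of myeloid receptors, measured 0.31, -0.41 and 0.00 in mutant and -0.89, 0.08, 0.93 and -1.03 in wild-type muscle. The smallest unadjusted p was that of Irf8, a transcription factor of monocyte and dendritic cell development, at a difference of 0.31 ± 0.08 (SE; limma adjusted p = 1.00). This probe set, 1448452_at, lay between 0.18 and 0.31 in mutant and between -0.14 and 0.00 in wild-type muscle, so its groups did not overlap. The other Irf8 probe set, 1416714_at, differed by 0.05 ± 0.20 (SE) and its groups overlapped. Ncf1, a subunit of the phagocyte oxidase, came next at 0.25 ± 0.12 in 1451767_at, and its other probe sets differed by -0.15 and -0.20. Without wild-type replicate 3 this list had 46 of 63 positive and a median of 0.12, where 49.3% of all probe sets were positive. Leaving out mutant replicate 2 gave 36 positive and a median of 0.05. The median was -0.07 with 22 positive without mutant replicate 1, and -0.06 with 23 positive without wild-type replicate 1. It was also -0.06, with 21 positive, without wild-type replicate 4. In these settings 47.0% to 48.7% of all probe sets were positive.

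Lymphocyte genes likewise gave no call. Their list means spanned less over the arrays, but some single T and B cell probe sets did not. On the T and NK cell list, 1417597_at of Cd28 spanned 2.00, and Thy1 spanned 1.89 with 1.68 in wild-type replicate 3. The T and NK cell list had 23 of 27 genes measured by 36 probe sets, of which 23 lay in the lowest level class. Differences between mutant and wild type were positive for 14 and negative for 22, with a median of -0.02 and 0 called. Over all probe sets 48.3% were positive. Leaving out mutant replicate 2 gave 20 of the 36 positive and a median of 0.02. Leaving out mutant replicate 1 gave 11 and -0.06, and leaving out any other array gave 12 to 17 positive. By limma 2 of the 36 had an unadjusted p under 0.05, against 1.79% of all probe sets. Those with the smallest p were chains of the CD8 co-receptor, Cd8a at -0.27 ± 0.10 in 1425335_at and Cd8b1 at -0.52 ± 0.20 (SE). The Cd8b1 probe set lay in the lowest level class, with 2 arrays at exactly 0. All mutant arrays lay below all wild-type arrays in 3 of the 36 probe sets and above them in 0, against 0.941% and 1.1% of all. These were 1425335_at of Cd8a, 1439749_at of Zap70 (-0.31 ± 0.15) and Cd6 (-0.16 ± 0.08, SE). The other Zap70 probe sets differed by 0.13 and -0.19. The 5 Cd8a probe sets ranged from -0.36 to -0.0080, with -0.01 in 1444078_at and -0.0080 in 1451673_at. The list mean lay between -0.12 and 0.11 in mutant and between -0.01 and 0.12 in wild-type muscle. The B cell list had 11 of 12 genes measured, with 12 of 24 probe sets positive, a median of -0.0058 and 0 called, also 0 at an unadjusted p under 0.05. Ighm, the immunoglobulin heavy chain of IgM, differed by -0.13 ± 0.11 in 1426196_at, but its 11 probe sets ranged from -0.19 to 0.15 with 5 of them positive. Cr2, a complement receptor of B cells, differed by 0.11 ± 0.10 (SE). Jchain, in the 8 to 16 class, measured -0.53, 0.99 and 0.00 in mutant and -1.50, 1.99, 0.44 and -0.50 in wild-type muscle. It spanned 3.50 over the arrays and differed by 0.04 ± 0.79 (SE) between genotypes. The Ighm probe set 1425324_x_at, in the same class, spanned 2.21.

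Genes of antigen presentation and leukocyte signals gave medians close to that of all probe sets. Antigen presentation genes (15 of 17 measured) had 14 of 30 probe sets positive, a median of -0.0085 and 0 called or under an unadjusted p of 0.05. Ciita, the activator of class II genes, differed by -0.31 ± 0.16 (SE) in 1421210_at, by -0.14 in 1421211_a_at and by 0.0047 in 1447075_at. Zbtb46, next by p on this list, differed by -0.40 ± 0.21 (SE) in 1440489_at, with -0.87 in mutant replicate 2. H2-Aa, a class II chain, differed by 0.32 ± 0.19 (SE) in 1435290_x_at, where 4 arrays were at exactly 0, and its 4 probe sets by 0.07 to 0.40. Chemokines, cytokines and their receptors (24 of 26 measured) had 18 of 39 positive, a median of -0.0021 and 0 called or under an unadjusted p of 0.05. Ccr1, a chemokine receptor, differed by -0.16 ± 0.11 (SE) in 1419610_at and by 0.03 ± 0.14 in 1419609_at, and Ccl3, a macrophage chemokine, by -0.14 ± 0.11. The growth factor Il34, a ligand of the CSF1 receptor, differed by -0.0021 ± 0.30 (SE), and the 4 probe sets of Csf1, its other ligand, by -0.10 to 0.09.

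**Figure D4:**
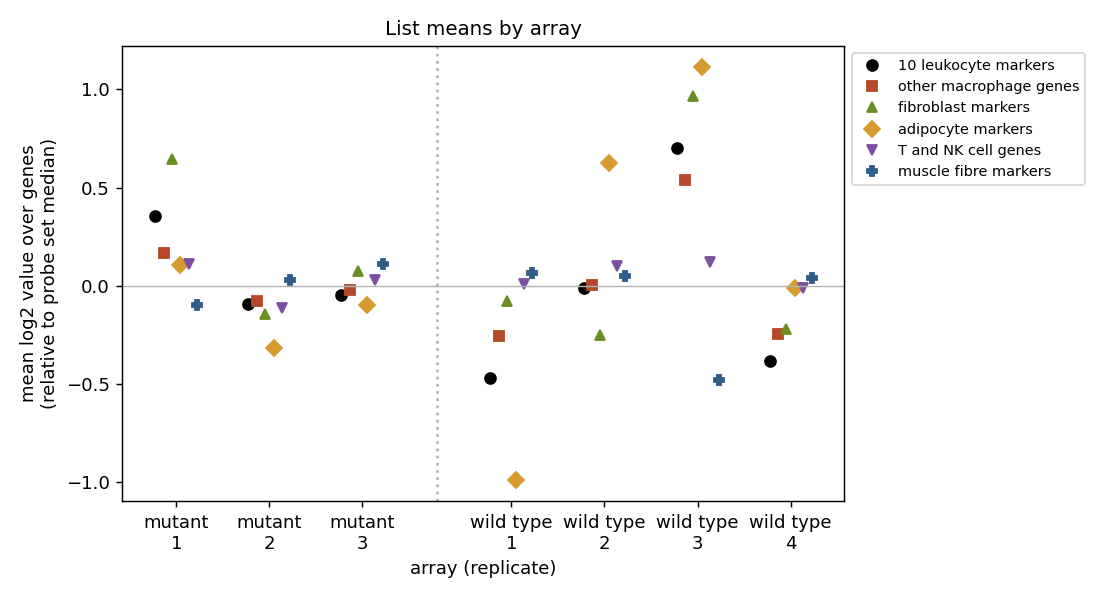
Mean log2 value over the genes of a list (y axis) in each of the 3 mutant and 4 wild-type arrays (x axis), for the 10 leukocyte markers and 5 other lists. In wild-type replicate 3 the leukocyte (0.70), fibroblast (0.97) and adipocyte (1.12) means are at their highest and the muscle fibre mean (-0.48) at its lowest.

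Markers of connective tissue and fat varied with the leukocyte markers from array to array, and muscle fibre markers varied against them. The fibroblast mean (12 of 12 genes) was 0.65, -0.14 and 0.07 in mutant and -0.08, -0.25, 0.97 and -0.22 in wild-type muscle, with r = 0.890 to the mean of the 10 markers over 7 arrays. The adipocyte mean (9 of 12 genes) was 0.11, -0.32 and -0.10 in mutant and -0.99, 0.63, 1.12 and -0.01 in wild-type muscle (r = 0.800). The muscle fibre mean (10 of 10 genes) was -0.10, 0.03 and 0.11 in mutant and 0.07, 0.05, -0.48 and 0.04 in wild-type muscle (r = -0.848). Endothelial and mural (r = 0.710), nerve and Schwann cell (r = 0.740), satellite cell (r = 0.863) and erythroid means (r = 0.396) spanned -0.28 to 0.13, -0.13 to 0.12, -0.17 to 0.16 and -0.28 to 0.50. The part of tissue makeup and of array quality in the leukocyte values was not tested. The cerebellum list, mostly in the lowest level class, reached r = 0.612 over the same arrays, the T and NK cell list 0.630 and the B cell list 0.566. Differences between mutant and wild type were positive for 19 of 24 endothelial and mural probe sets (median 0.11), 3 of 15 adipocyte (median -0.15), 11 of 24 fibroblast (median -0.02), 11 of 17 muscle fibre (median 0.03), 9 of 24 nerve and Schwann cell (median -0.04), 10 of 17 satellite cell (median 0.01), 5 of 8 erythroid (median 0.05) and 7 of 23 cerebellum probe sets (median -0.03). In these lists limma called 0 probe sets, and 48.3% of all probe sets were positive. Several of these counts rested on wild-type replicate 3. Without it 8 of 15 adipocyte (median 0.05), 21 of 24 fibroblast (median 0.21) and 4 of 17 muscle fibre probe sets (median -0.06) were positive. The endothelial and mural count stayed at 19 of 24, and 49.3% of all were positive. The probe set with the smallest unadjusted p in each list is named here, with the range over the gene's probe sets where it had several. Flt1, a VEGF receptor, differed by 0.27 ± 0.11 (SE) in 1419300_at, and its 4 probe sets by 0.08 to 0.43. Fabp4, a fatty acid binding protein, differed by 0.42 ± 0.15 in 1425809_at, whereas its other 3 probe sets had negative differences of -0.17 to -0.06. Postn, a matrix protein, differed by 1.13 ± 0.98, with 3.82 in mutant replicate 1, -0.25 and 0.16 in the other mutant arrays and 1.27 in wild-type replicate 3. The high value was thus that of 1 array. Ttn, the titin gene, differed by 1.17 ± 0.36 in 1444638_at, and its 6 probe sets by -0.19 to 1.36. Drp2 of Schwann cells differed by 0.34 ± 0.16 in 1441224_at, while its other probe sets had -0.13 and -0.04. Sdc4, a syndecan, differed by 0.52 ± 0.11 in 1448793_a_at and by 0.53 ± 0.65 in 1417654_at. Slc4a1 of red cells differed by 0.43 ± 0.34 in 1434502_x_at, where mutant replicate 1 was at 1.34 and the other mutant arrays at 0.00 and -0.17, and its other probe sets had 0.10 and -0.08. Grm4, a glutamate receptor of cerebellum, differed by -0.21 ± 0.09.

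The 6 probe sets most like the mean of the 10 markers over the 7 arrays, among 21106 outside the lowest level class, had r from 0.990 to 0.994. They belonged to Emp3, Folr2, Cap1, Blvrb, Ift140 and Mrpl47. Folr2, a folate receptor of resident macrophages, was also on the macrophage list and measured 0.53, -0.25 and 0.00 in mutant and -0.89, 0.08, 1.26 and -0.61 in wild-type muscle. Emp3, a membrane protein gene, measured 0.60, -0.32 and 0.00 in mutant and -0.77, 0.05, 1.21 and -0.68 in wild-type muscle. Blvrb, a biliverdin reductase, and Cap1, an actin regulator, spanned 1.80 and 1.32 over the arrays. Mrpl47 had the same order of arrays as the marker mean, over a narrower range of 0.71. Ift140, over a range of 0.41, had the same highest and lowest arrays. Its mutant replicates 2 and 3 and wild-type replicate 2 all lay at 0.00 and did not keep the order.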

How the data were processed

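The authors deposited 1 table of log2 values for 45101 probe sets on 7 single-colour Affymetrix arrays, each relative to its probe set's median over the arrays, which was exactly 0 in all 45101. GCOS 4.0 is listed in the submitters' processing notes. How probes were summarised, arrays scaled and values centred, and which log base was used, the labels do not say. Base 2 was read from the number spacing. In 25454 probe sets more than 1 array was at exactly 0. Arrays give no read depth, and their number limits the precision. RNA was extracted with Trizol and 5 ug was labelled, per the labels' protocols.

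Symbols came from the platform annotation and were updated by Entrez identifier with RefSeq (GRCm38.p6), which matched 34754 of 34958 probe sets with 1 symbol. Another 932 had several symbols and 9211 none. Control probe sets and those without 1 symbol were left out, which left 34945. The level class was read from the bits of values at least 0.02 from 0, in arrays no more than 0.25 below the median.

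The test was limma's moderated test (version 3.58.1, R 4.3.3, lmFit and eBayes) over all 34945 probe sets, 3 mutant against 4 wild-type arrays, two-sided, with Benjamini-Hochberg adjustment at a threshold of 0.05. The fit was tested on simulated data. Correlations over arrays are descriptions. Genes and gene lists were chosen with earlier results of these data known. The text names each marker, in each other list the genes of up to 4 probe sets with the smallest p, and the 6 most like probe sets. Spi1, C1qb, C1qc, Cd3d, Cd3g, Tyrobp, Csf1, Il34 and Lyz1 were added for their relation to the markers, and Jchain, Cd28 and Thy1 for their wide ranges over the arrays. Alternatives were quantile normalization, 1 value per gene, no probe sets of the lowest level class, robust eBayes, age as a covariate, a replicate block and each array left out. A block of 3 arrays, fits within and outside them, and leaving out 2 arrays together were chosen after seeing the data.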

Additional observations from a re-analysis of the deposited data

Results flagged for a closer look

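Among the 4 wild-type arrays, 5 of the 28 sets of values examined (13 probe sets and 15 list means) had 1 array whose gap to its nearest neighbour, as a share of the whole range, exceeded Dixon's 95% critical value. For independent, normally distributed values about 5% of such sets exceed it. The values here are centred on medians, many with more than 1 array at exactly 0, and the sets share their arrays. The rate over all probe sets was not computed, so the count of 5 has no background beside it. The share was 0.901 for Adgre1 and 0.884 for 1419872_at of Csf1r, where wild-type replicate 3 was high at 0.83 and 0.93. It was 0.86 for the fibroblast marker mean, where the same array was high at 0.97, and 0.945 for the muscle fibre marker mean, where it was low at -0.48. For Cd3e it was 0.837, with wild-type replicate 4 at 0.07 and the other 3 wild-type arrays from 0.00 to 0.01, a gap that is small beside the mutant spread of -0.86 to 0.17.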

How the results depend on the processing

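The count of called marker probe sets was 0 under each alternative run, as was the count over all probe sets, with limma throughout. The median difference of the markers was 0.12 and lay between -0.06 and 0.30 when 1 array was left out. It was 0.17 with quantile normalization, 0.15 with 1 value per gene, 0.06 without the lowest level class, 0.12 with robust eBayes and 0.03 with age as a covariate. It was 0.0060 with mutant replicate 2 and wild-type replicates 1 and 4 as a block, and 0.31 without mutant replicate 1 and wild-type replicate 3 together. It was 0.35 within those 3 arrays and -0.21 within the other 4. Same-numbered mutant and wild-type arrays did not deviate together (r = -0.494, -0.320 and 0.151), and mutant replicate 1 tracked wild-type replicate 3 best (r = 0.507). Such correlations cannot decide whether the numbers pair the mice, because they also carry the split of the 3 arrays that stood apart. Same-numbered mutant and wild-type mice were 24 and 26, 24 and 24, and 21 and 21 months old. With the replicate block, in which wild-type replicate 4 stands alone, the median was -0.03 and 0 markers were called.

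Of 214 values of single probe sets under the alternatives, 42 turned sign, none of them called. The cause was not tested. With 1 array left out the range was -0.21 to 0.10 for Adgre1, -0.0341 to 0.70 for C1qa, -0.24 to 0.12 for 1419872_at, -0.15 to 0.31 for 1419873_s_at and -0.0627 to 0.23 for 1423593_a_at of Csf1r, -0.17 to 0.61 for Lyz2, -0.11 to 0.47 for Mrc1, and -0.0704 to 0.30 for 1422124_a_at and -0.0222 to 0.34 for 1440165_at of Ptprc. Quantile normalization gave 0.036 for 1419873_s_at, and age as a covariate -0.0234 for 1423593_a_at. The replicate block gave -0.0613 for 1422124_a_at, -0.0517 for 1423593_a_at, -0.11 for Mrc1 and -0.034 for Lyz2. These equal the estimates without wild-type replicate 4, which is alone in its block, so the same turns are counted under both settings. The block of 3 arrays gave -0.0326 for 1423593_a_at and -0.0358 for Lyz2. Within those 3 arrays, with 1 mutant array assumed to vary like the wild type, the value was -0.11 for 1440165_at, 0.0285 for Adgre1, 0.40 for 1419873_s_at and 0.32 for 1419872_at. Within the other 4 it was -0.43 for 1422124_a_at, -0.16 for Cd68, -0.18 for 1423593_a_at, -0.21 for Cd163, -0.37 for Mrc1, -0.44 for Lyz2 and -0.0476 for C1qa. Without mutant replicate 1 and wild-type replicate 3 it was -0.0041 for 1440165_at, 0.0573 for Adgre1, 0.31 for 1419873_s_at and 0.073 for 1419872_at.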

Other observations

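Granulocyte genes, measured beside the markers, split into groups by array, which was seen after their values were known. Of the neutrophil genes on the list, S100a8, S100a9, Ngp, Camp, Ltf and Mpo were highest in mutant replicate 1, and Elane, Csf3r and Cxcr2 were not. The probe sets of Elane, Csf3r and Cxcr2 lay in the lowest level class, so their values may hold little signal. S100a9, a calcium-binding protein of neutrophils, measured 5.35, 0.00 and -0.35 in mutant and -0.59, 2.52, 0.44 and -0.53 in wild-type muscle. Its partner S100a8 measured 4.93, 0.00 and 0.00 in mutant and -0.54, 1.71, 0.19 and -0.33 in wild-type muscle. Ngp was at 3.29, Camp at 1.83 and Ltf at 1.70 in mutant replicate 1, against at most 0.45, 0.33 and 0.24 in the other 6 arrays. Mpo was at 0.47 there. Elane, a granule protease, was at 0.10 in that array and highest in wild-type replicate 3 at 0.31, while the receptors Csf3r and Cxcr2 were at 0.02 and -0.16 in it. The mean of the 10 leukocyte markers was instead highest in wild-type replicate 3, and the 18S control mean in mutant replicate 1 was 3.19.

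Among the mast cell genes, the proteases Cpa3 and Cma1 were highest in wild-type replicate 3 and lowest in wild-type replicate 1, as was the leukocyte marker mean. Mcpt4, Tpsb2, Fcer1a, Ms4a2 and the other Kit probe set are not described here. Wild-type replicate 3 was the highest array for 8 of the 16 genes measured on the neutrophil and mast cell list. Probe set 1415900_a_at of Kit, on the same list, was also highest in wild-type replicate 3, at 0.31. Its lowest array was mutant replicate 2, at -0.25, and it lay in the lowest level class. Cpa3, a mast cell carboxypeptidase, measured 0.08, -0.16 and 0.00 in mutant and -1.06, 0.26, 1.88 and -0.53 in wild-type muscle. Cma1, a chymase, measured 0.14, -0.76 and 0.00 in mutant and -1.65, 0.16, 1.62 and -0.74 in wild-type muscle. Of the 19 neutrophil and mast cell probe sets, 7 had a positive and 12 a negative difference between mutant and wild type, with a median of -0.05. The limma fit called 0 of them, and 0 had an unadjusted p under 0.05. The smallest p was that of Csf3r, the receptor of a neutrophil growth factor, at -0.30 ± 0.16 (SE).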
